A study of Mus musculus with 13 samples.

Results

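Mitosis and spindle genes are 42 genes chosen by symbol, for their textbook roles in cell division, with earlier results of these data known. They were followed in RNA of SM1 tumours on 13 Affymetrix mouse genome arrays. Of the 42, 41 have a probe set with a single gene symbol, and all 41 were among the 13785 genes tested. Transcripts of the remaining gene, Ccnb1, were not analysed here, but its promoter is counted among those of the members. SM1 is a transplantable mouse melanoma with the BRAF V600E mutation, and every tumour grew in a C57BL/6 mouse that received splenocytes by adoptive transfer. The control recipients were given splenocytes of C57BL/6 mice and either vehicle (2 arrays, replicates 1 and 3) or dabrafenib and trametinib together (2 arrays, replicates 2 and 3). The pmel-1 recipients were given splenocytes of pmel-1 mice, which are transgenic for a T cell receptor against gp100, a melanocyte protein, and vehicle (2 arrays), dabrafenib (2), trametinib (2) or both drugs (3). Dabrafenib inhibits mutant BRAF and trametinib inhibits MEK, the kinase below it. Each drug alone was given to pmel-1 recipients, so its values belong to tumours that also met these T cells, and SM1 is a single tumour line. The sources used here do not give doses, times of harvest, age or sex. They do not say that replicates are separate animals either, and the p-values then measure only how these samples scatter, which may be technical.

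Cells that prepare to divide first copy their DNA and then build up the proteins of mitosis. The kinase Cdk1 with its cyclins starts mitosis, a spindle of microtubules attaches to chromosomes at their kinetochores, and a checkpoint holds the cell until every chromosome is attached. The anaphase-promoting complex then releases the sister chromatids, and the cell divides at the spindle midzone. Most of these genes are transcribed late in the cell cycle, by way of the factor FoxM1 and of complexes that bind the cell cycle homology region (CHR) and the CCAAT box. In melanoma the BRAF and MEK kinases drive entry into the cycle, and these transcripts are widely used as a reading of proliferation.

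Of 2 motifs searched just before the gene, CCAAT stood in most of the group and the CHR in a minority. In the 250 bases before the RefSeq start site (GRCm38.p6), the letters TTTGAA of the CHR stood on either strand in 13 of the 34 members with a promoter entry (38.2%), against 18.3% of 27025 genes. The letters CCAAT stood in 25 of the 34 (73.5%), against 37.5% of all genes, and both motifs in 12 (35.3%), against 6.45%. Matches of the 2 motifs can share an end base and no more. Among 50 other mitotic genes the CHR stood in 36.0% and CCAAT in 64.0%, and among 30 DNA replication genes in 13.3% and 66.7%. These are letter matches, described without a test, and not shown to be sites. Promoters of 4 members that hold both motifs are shown because these genes anchor 3 of the roles described here, entry, spindle assembly and chromosome structure. They are written 5′ to 3′ on the strand of the gene, ending at the base before the start site. Capitals mark TTTGAA or CCAAT and their reverse complements TTCAAA and ATTGG.

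Cdk1 (chr10:69352913-69353162, minus strand): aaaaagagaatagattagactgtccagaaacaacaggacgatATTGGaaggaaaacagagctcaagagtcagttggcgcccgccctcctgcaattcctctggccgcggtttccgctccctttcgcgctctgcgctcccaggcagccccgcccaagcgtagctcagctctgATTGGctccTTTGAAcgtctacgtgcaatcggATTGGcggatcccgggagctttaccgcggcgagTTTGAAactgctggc
Kif11 (chr19:37376132-37376381, plus strand): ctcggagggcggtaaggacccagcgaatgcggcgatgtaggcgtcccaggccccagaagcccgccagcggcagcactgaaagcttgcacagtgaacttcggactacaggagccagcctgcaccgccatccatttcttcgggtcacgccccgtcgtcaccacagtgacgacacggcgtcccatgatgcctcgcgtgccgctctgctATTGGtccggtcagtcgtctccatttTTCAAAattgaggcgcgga
Top2a (chr11:99024190-99024439, minus strand): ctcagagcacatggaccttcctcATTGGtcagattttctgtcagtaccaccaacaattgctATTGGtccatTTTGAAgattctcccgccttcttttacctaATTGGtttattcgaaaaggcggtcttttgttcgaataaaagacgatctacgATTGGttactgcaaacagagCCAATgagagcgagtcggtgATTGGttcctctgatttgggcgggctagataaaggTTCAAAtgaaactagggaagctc
Mki67 (chr7:135716380-135716629, minus strand): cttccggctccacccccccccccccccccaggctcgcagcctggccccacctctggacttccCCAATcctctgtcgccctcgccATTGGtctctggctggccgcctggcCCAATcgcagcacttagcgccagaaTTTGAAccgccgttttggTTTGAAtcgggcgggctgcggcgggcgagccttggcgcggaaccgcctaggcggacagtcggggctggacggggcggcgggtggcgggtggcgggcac

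Cdk1, the kinase that starts mitosis, holds TTTGAA from 71 and from 15 bases before the start, and CCAAT on the other strand from 208, 80 and 48 bases. Kif11, the motor that pushes the spindle poles apart, holds 1 of each, from 19 and 45 bases. Top2a, the topoisomerase that untangles sister DNA, holds 2 CHR and 6 CCAAT matches. Mki67, which encodes the proliferation antigen Ki-67 that coats mitotic chromosomes, holds the CHR from 116 and 98 bases and CCAAT from 188, 166 and 141. All 4 windows hold both motifs.

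Values are log2 intensities, in which a difference of 1 is a doubling. Every member was above 5.79, the level used as the filter on low values, on every array, the lowest value being 7.71. The melanocyte markers Pmel, Mlana, Tyr, Tyrp1, Dct, Mitf and Sox10 were all above that level in every group. Quality and cell content varied with the groups. The 3′ over 5′ log2 ratio of the Actb and Gapdh control probe sets, which rises as RNA is degraded or shortened, ran from 0.18 to 0.42 in the 6 arrays of control recipients and pmel-1 vehicle tumours and from 0.60 to 1.65 in the 7 pmel-1 arrays with a drug. The mean level of 7 macrophage markers ran from 8.17 to 8.19 in control vehicle tumours, 8.90 to 9.21 in control both-drugs, 8.63 to 8.75 in pmel-1 vehicle, 9.57 to 10.29 in dabrafenib, 8.74 to 9.16 in trametinib and 9.71 to 10.20 in pmel-1 both-drugs tumours. That of 8 T cell markers ran from 6.00 to 6.24 in the 6 arrays of control recipients and pmel-1 vehicle tumours, 6.72 to 6.98 in dabrafenib, 6.37 to 6.495 in trametinib and 6.77 to 7.08 in pmel-1 both-drugs tumours. That of 6 fibroblast markers ran from 8.57 to 10.001 in control vehicle and 10.54 to 11.13 in control both-drugs tumours, and from 8.44 to 10.49 over the pmel-1 groups. That of 7 melanocyte markers ran from 11.97 to 12.08 in vehicle tumours and from 12.61 to 12.76 in drug-treated ones. The adipocyte hormone gene Adipoq read 10.32, 9.30 and 10.05 in dabrafenib replicate 2, trametinib replicate 1 and pmel-1 both-drugs replicate 2, and 7.54 at most elsewhere. Control vehicle replicate 3 read 9.90 for the muscle actin gene Acta1, and no other array read over 6.61. The part of RNA quality and of these cell types in the results was not tested.

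The mitotic transcripts were lowest with trametinib. On both trametinib arrays 0 of the 41 members exceeded their own mean over the 13 arrays, and the median member lay 0.46 and 0.51 below that mean. The pmel-1 vehicle arrays had 32 and 25 members above their means, and the 3 pmel-1 arrays with both drugs 24, 31 and 18. The trametinib group had the lowest mean of the 6 groups for 38 members, pmel-1 vehicle for 2 and dabrafenib for 1. The highest mean lay in control vehicle tumours for 17 members, in each of the 2 both-drugs groups for 10 and in pmel-1 vehicle for 4. Replicates were not alike in every group. Dabrafenib replicate 1 had 0 members above their means and a median of −0.34, replicate 2 had 20 and −0.014. Control both-drugs replicate 2 stood highest of all arrays, with 39 members above their means and a median of 0.35, while replicate 3 had 13 and −0.045.

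**Figure D1:**
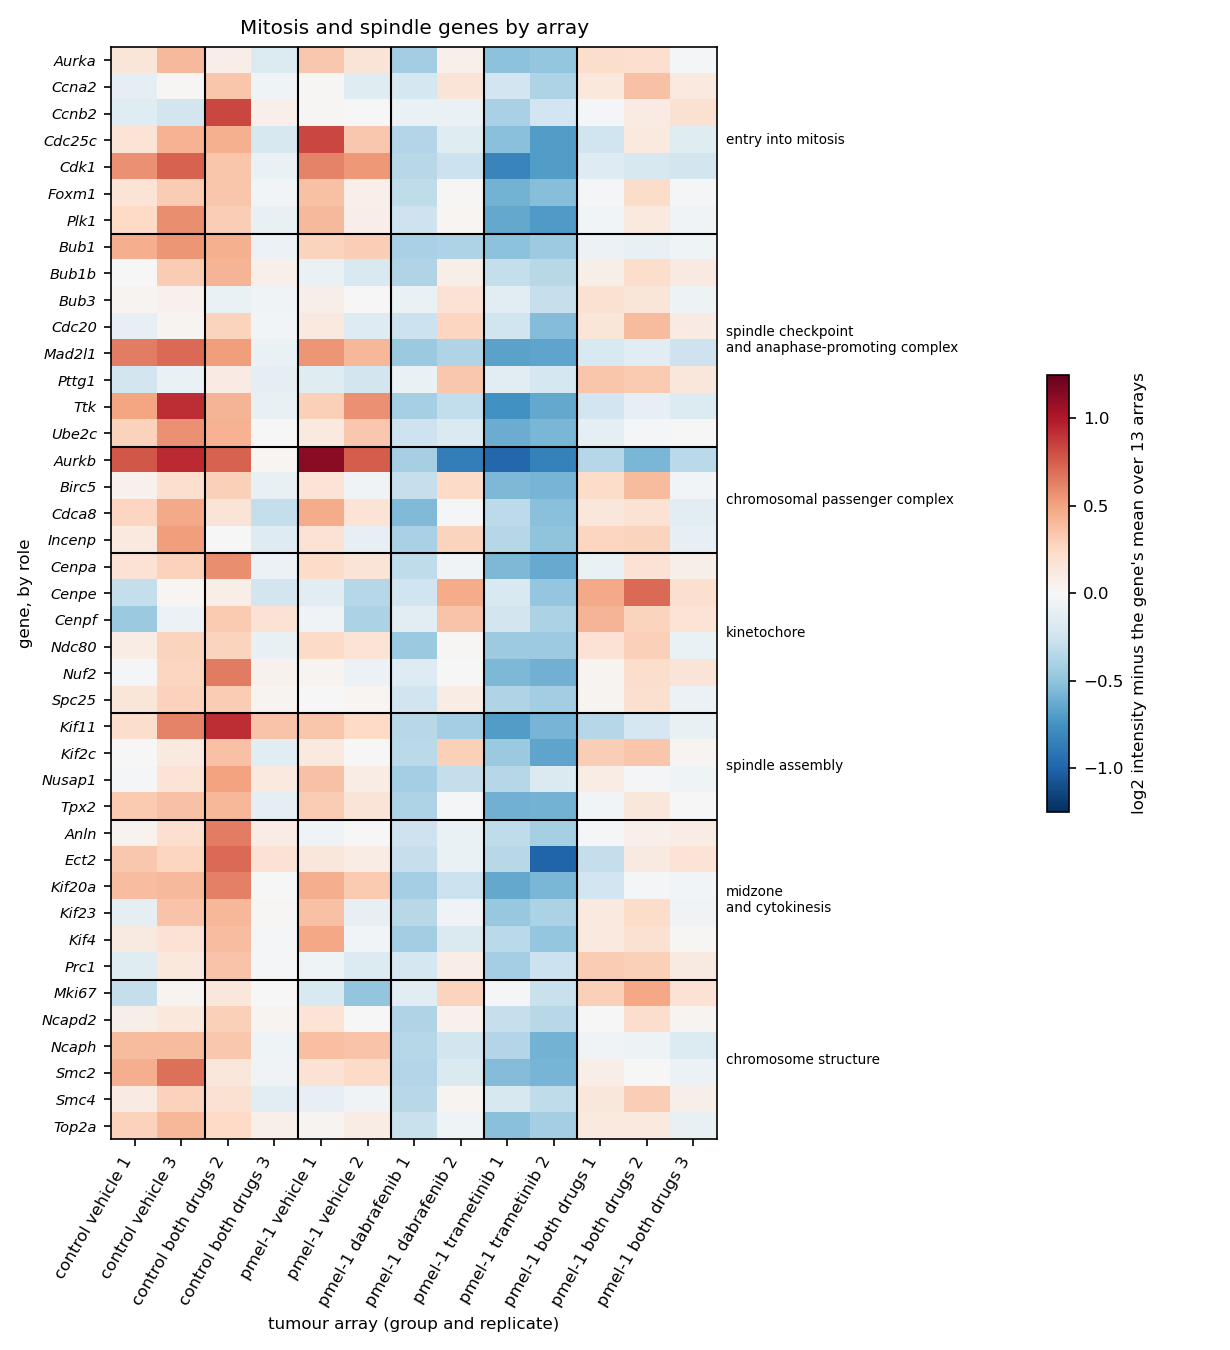
Log2 intensity of each of the 41 mitosis and spindle genes (rows, by role) on each of the 13 arrays (columns, by group and replicate), minus the gene's mean over the arrays. Both trametinib columns have 0 genes above their mean, though Mki67 on replicate 1 lies close to its own. The paired columns of dabrafenib and of control recipients given both drugs differ from each other.

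Each drug treatment was compared with vehicle to ask what it did to these transcripts. A gene is said to rise or fall when its limma adjusted p (Benjamini-Hochberg over 13785 genes) is under 0.05, and differences are log2 ± SE of the fit. With trametinib 27 of 41 members fell and 0 rose, where 38.6% of all genes tested passed, 19.1% lower and 19.5% higher. The median member was at −0.63 and the median gene at 0.026. The largest falls were those of Aurkb (−1.86 ± 0.22), Cdk1 (−1.34 ± 0.13), Cdc25c (−1.20 ± 0.22), Mad2l1 (−1.15 ± 0.16), Ttk (−1.13 ± 0.18) and Kif20a (−1.003 ± 0.17). Estimates lay below 0 for 39 members, all but Mki67 (0.20 ± 0.18) and Pttg1 (0.0093 ± 0.14). In 37 members both trametinib arrays read below both vehicle arrays, against 33.8% of all genes, and in 0 members above them, against 37.9%. Fewer tumour cells in cycle and less of each RNA per cycling cell cannot be told apart in whole tumours, here and in every comparison that follows. The count was 17 without pmel-1 vehicle replicate 1, and 22 without the 3 arrays highest in Adipoq. Falls that passed under all 26 alternatives numbered 14, among them Foxm1, Cdk1, Plk1, Aurkb, Bub1, Kif11, Tpx2 and Ncaph.

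With dabrafenib 14 members fell and 0 rose, where 41.4% of all genes passed, 19.6% lower and 21.8% higher. The comparison uses the same 2 vehicle arrays as that with trametinib. The median member was at −0.33, and 33 estimates lay below 0. The groups did not overlap in 24 members lower (34.2% of all genes) and 2 higher (36.7%). Aurkb (−1.59 ± 0.22), Mad2l1 (−0.90 ± 0.16), Cdk1 (−0.89 ± 0.13), Cdc25c (−0.84 ± 0.22) and Ttk (−0.80 ± 0.18) had the largest falls. Foxm1 (−0.36 ± 0.17, adjusted p = 0.1035), Plk1 (−0.36 ± 0.17, adjusted p = 0.1176) and Top2a (−0.23 ± 0.12, adjusted p = 0.1655) did not pass. The count was 9 without pmel-1 vehicle replicate 1, 23 with the most variable probe set of each gene (22 lower, 1 higher) and 8 in the fit that held the 3′ over 5′ ratio. Falls that passed under all 26 alternatives were those of Cdk1, Aurkb, Mad2l1, Smc2 and Ncaph.

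With both drugs in pmel-1 recipients 9 members fell and 4 rose, where 45.6% of all genes passed, 21.2% lower and 24.3% higher. The share of members that fell was near that of all genes, and the share that rose was below it. The median member was at −0.070. The groups did not overlap in 12 members lower (29.8% of all genes) and 9 higher (33.5%). The falls were Aurkb (−1.36 ± 0.20), Cdk1 (−0.78 ± 0.12), Cdc25c (−0.68 ± 0.20), Mad2l1 (−0.68 ± 0.15), Ttk (−0.60 ± 0.17), Kif11 (−0.52 ± 0.17), Kif20a (−0.49 ± 0.16), Ncaph (−0.46 ± 0.12) and Bub1 (−0.37 ± 0.13). The rises were Cenpe (0.71 ± 0.22), Mki67 (0.67 ± 0.17), Cenpf (0.51 ± 0.17) and Pttg1 (0.46 ± 0.13). Of these 13 calls 2 passed under all 26 alternatives, the falls of Cdk1 and Aurkb. With the most variable probe set of each gene, Cenpe (−0.64), Cenpf (−0.88) and Pttg1 (−0.16) lay below 0. In a fit that also held the 3′ over 5′ ratio 3 passed, all falls (Cdk1, Aurkb and Ncaph), and with the ratio taken over 4 control genes 5 passed, all falls. The count was 6 without pmel-1 vehicle replicate 1 (2 higher, 4 lower), 5 without replicate 2 (0 higher, 5 lower) and 8 without both-drugs replicate 1.

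With both drugs in control recipients 4 members fell and 1 rose, a smaller share than the 35.4% of all genes that passed, 16.7% lower and 18.7% higher. Ttk (−0.54 ± 0.18), Smc2 (−0.52 ± 0.12), Cdk1 (−0.52 ± 0.13) and Mad2l1 (−0.46 ± 0.16, adjusted p = 0.0460) fell. Ccnb2, a B-type cyclin, rose by 0.64 ± 0.19. The median member was at −0.040, and 19 estimates lay above 0 and 22 below. The groups did not overlap in 12 members lower (33.9% of all genes) and 2 higher (35.1%). Of 6 fibroblast markers 2 rose and 0 fell in this comparison (median 1.43), and of 7 macrophage markers 5 rose and 0 fell (0.93). Their part in the result was not tested. The members' values rest on single arrays. Without replicate 2, which reads high for most members, 7 members fell and the median was −0.23, and without replicate 3 it was 0.17 with 3 members higher and 0 lower. The count was 1 without control vehicle replicate 3, 3 without control vehicle replicate 1, pmel-1 both-drugs replicate 3 or either trametinib array, and 0 of the 5 calls passed under all 26 alternatives.

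**Figure D2:**
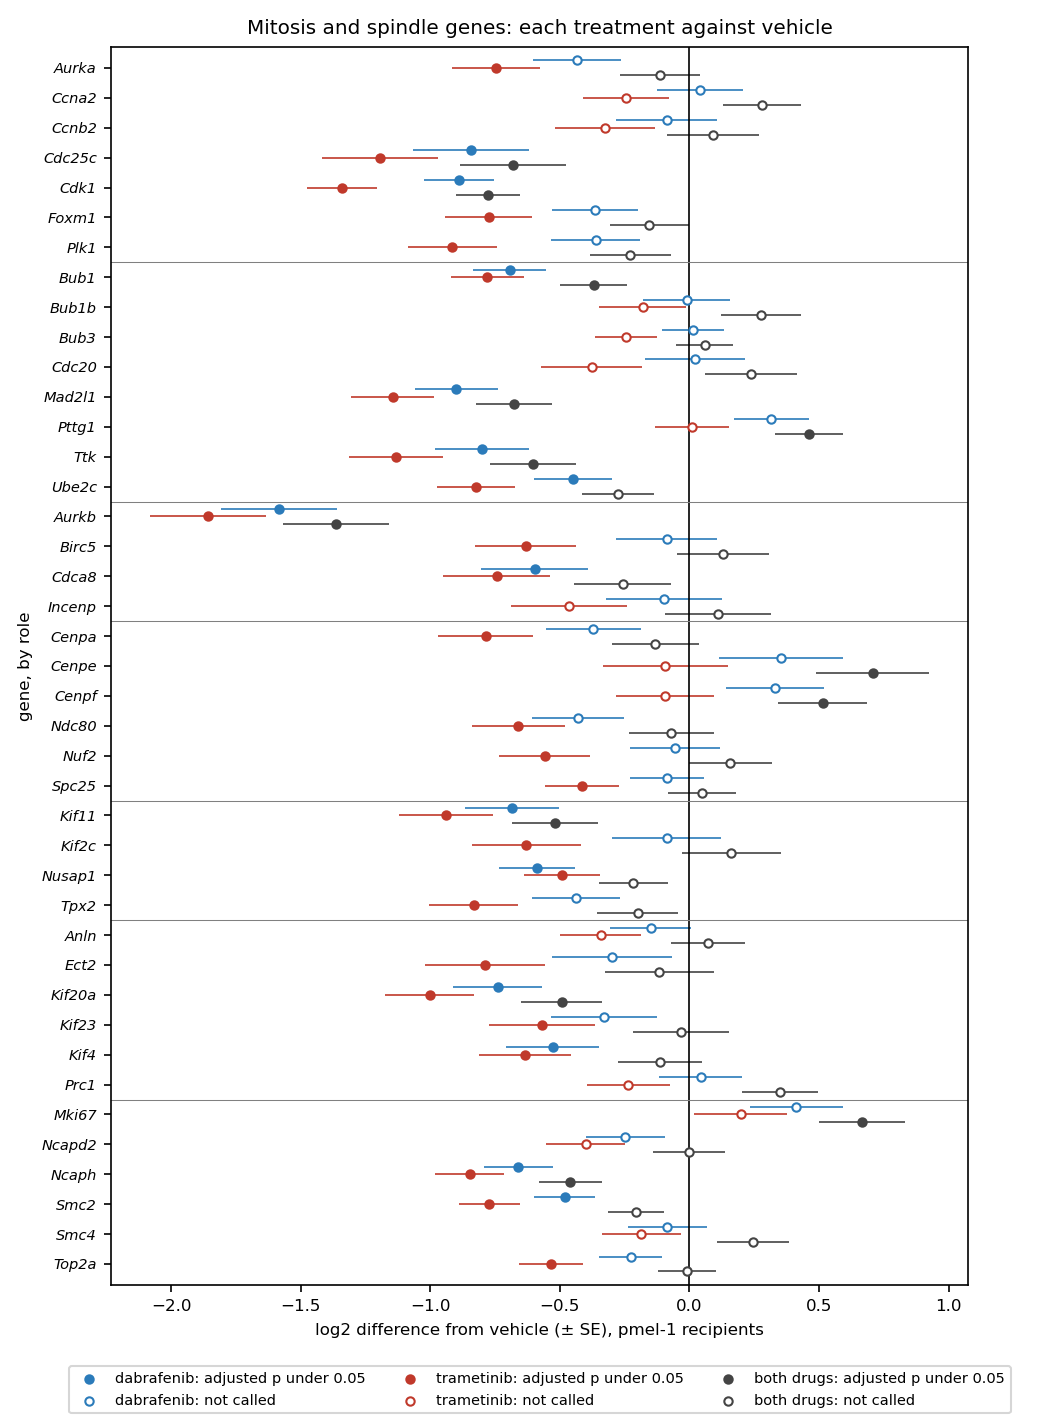
Log2 difference from vehicle (± SE of the limma fit) in pmel-1 recipients for each member, by role, with dabrafenib, trametinib and both drugs. Filled points have an adjusted p under 0.05. Trametinib points lie farthest left for most genes, Aurkb reaches −1.86, and the filled points to the right of 0 are Cenpe, Mki67, Cenpf and Pttg1 with both drugs.

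The genes of entry into mitosis include the transcription factor Foxm1, the kinase Cdk1, its activating phosphatase Cdc25c, the cyclins Ccna2 and Ccnb2 and the kinases Plk1 and Aurka. Of the 7 measured, 5 fell with trametinib, 2 with dabrafenib and 2 with both drugs in pmel-1 recipients, and in control recipients 1 fell and 1 rose. Counts for this and the following roles stand beside the shares of all genes that fell, 19.1% with trametinib, 19.6% with dabrafenib, 21.2% and 16.7% with both drugs in pmel-1 and control recipients. With so few genes in a role, nothing is read from counts of 1 or 2. Cdk1 read 11.99 and 12.16 in control vehicle tumours, 11.76 and 11.33 in control tumours given both drugs, 12.04 and 11.96 in pmel-1 vehicle, 11.07 and 11.15 in dabrafenib, 10.60 and 10.72 in trametinib and 11.26, 11.22 and 11.19 in pmel-1 tumours given both drugs. Every array of the 3 pmel-1 drug groups lay below every vehicle array, the 2 trametinib arrays lowest. Its fall was 2.53-fold with trametinib (adjusted p = 3.93e-05), 1.85-fold with dabrafenib (4.50e-04), 1.71-fold with both drugs in pmel-1 recipients (4.42e-04) and 1.44-fold in control recipients (0.0108).

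Foxm1, the factor that switches on many late cell cycle genes, read 9.11 and 9.25 in control vehicle tumours, 9.29 and 8.90 in control tumours given both drugs, 9.30 and 9.003 in pmel-1 vehicle, 8.62 and 8.95 in dabrafenib, 8.34 and 8.41 in trametinib and 8.91, 9.17 and 8.91 in pmel-1 tumours given both drugs. The trametinib arrays were the lowest, and the other groups overlapped in part. It fell by 0.78 ± 0.17 with trametinib and was at −0.16 ± 0.15 with both drugs. Plk1, a kinase that works from the spindle poles to cytokinesis, read 10.57 and 10.91 in control vehicle tumours, 10.63 and 10.23 in control tumours given both drugs, 10.73 and 10.40 in pmel-1 vehicle, 10.06 and 10.35 in dabrafenib, 9.69 and 9.62 in trametinib and 10.29, 10.45 and 10.28 in pmel-1 tumours given both drugs. It fell with trametinib by 0.92 ± 0.17 (adjusted p = 0.0017), while the both-drugs and vehicle groups of pmel-1 recipients overlapped. Aurka, the spindle pole kinase, fell by 0.75 ± 0.17 with trametinib and was at −0.43 ± 0.17 with dabrafenib (adjusted p = 0.0618). The cyclins passed in no pmel-1 comparison with vehicle, Ccna2 being at −0.24 ± 0.16 and Ccnb2 at −0.33 ± 0.19 with trametinib. Ccnb2 read 11.62 and 11.54 in control vehicle tumours, 12.61 and 11.83 in control tumours given both drugs, 11.78 and 11.77 in pmel-1 vehicle, 11.69 and 11.69 in dabrafenib, 11.37 and 11.53 in trametinib and 11.76, 11.88 and 11.97 in pmel-1 tumours given both drugs. Control both-drugs replicate 2 stood above every other array, and without it the rise in control recipients did not pass.

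**Figure D3:**
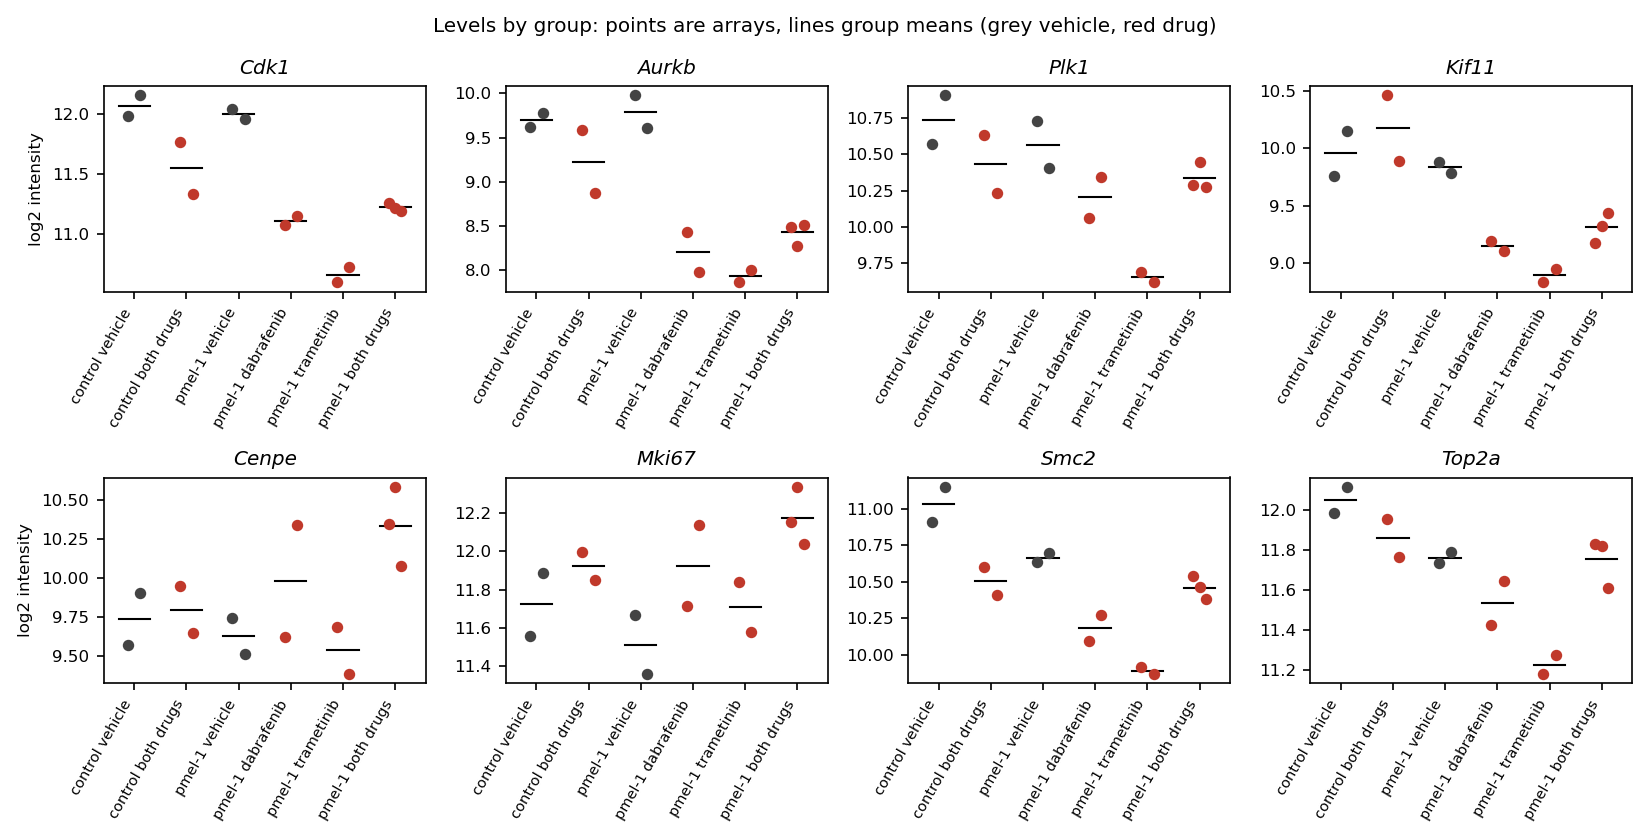
Log2 intensity of 8 members on each array by group. Points are arrays (grey vehicle, red drug) and lines group means, on a separate scale for each gene. Cdk1, Aurkb and Kif11 lie lower in all 3 drug groups of pmel-1 recipients than in their vehicle group, Plk1 and Top2a lowest with trametinib, and Mki67 and Cenpe highest with both drugs in pmel-1 recipients.

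The spindle checkpoint is built from Bub1, Bub1b, Bub3, Mad2l1 and the kinase Ttk. Cdc20 and Ube2c work with the anaphase-promoting complex, and Pttg1 (securin) is the inhibitor it destroys. Of these 8, 4 fell with trametinib and 4 with dabrafenib (Bub1, Mad2l1, Ttk and Ube2c in both), 3 fell and 1 rose with both drugs in pmel-1 recipients, and 2 fell in control recipients. Mad2l1, which forms the signal that holds anaphase back, read 11.78 and 11.85 in control vehicle tumours, 11.66 and 11.05 in control tumours given both drugs, 11.69 and 11.55 in pmel-1 vehicle, 10.68 and 10.76 in dabrafenib, 10.47 and 10.48 in trametinib and 10.95, 10.99 and 10.88 in pmel-1 tumours given both drugs. All 7 pmel-1 drug arrays lay below all 4 vehicle arrays. Ttk, the kinase that starts the checkpoint, read 9.57 and 10.003 in control vehicle tumours, 9.51 and 8.99 in control tumours given both drugs, 9.38 and 9.65 in pmel-1 vehicle, 8.66 and 8.78 in dabrafenib, 8.33 and 8.44 in trametinib and 8.85, 8.98 and 8.92 in pmel-1 tumours given both drugs. It lay lower on all 7 pmel-1 drug arrays than on the vehicle arrays, with falls of 2.2-fold with trametinib and 1.52-fold with both drugs. Bub1b, a part of the same complex as Mad2l1, read 10.62 and 10.94 in control vehicle tumours, 11.05 and 10.68 in control tumours given both drugs, 10.54 and 10.43 in pmel-1 vehicle, 10.25 and 10.70 in dabrafenib, 10.33 and 10.28 in trametinib and 10.70, 10.85 and 10.73 in pmel-1 tumours given both drugs. The groups lay close together, and no comparison with vehicle passed (both drugs in pmel-1 recipients 0.28 ± 0.15, adjusted p = 0.1729, trametinib −0.18 ± 0.17, 0.4422). Pttg1 was higher on all 3 both-drugs arrays of pmel-1 recipients (13.85 to 14.05) than on the vehicle arrays (13.48 and 13.56).

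The chromosomal passenger complex joins the kinase Aurkb to Incenp, Birc5 (survivin) and Cdca8 (borealin), and corrects faulty attachments of chromosomes. With trametinib 3 of the 4 fell, with dabrafenib 2, with both drugs in pmel-1 recipients 1 and in control recipients 0. Aurkb read 9.62 and 9.78 in control vehicle tumours, 9.58 and 8.87 in control tumours given both drugs, 9.98 and 9.61 in pmel-1 vehicle, 8.43 and 7.98 in dabrafenib, 7.87 and 8.002 in trametinib and 8.49, 8.28 and 8.51 in pmel-1 tumours given both drugs. The 7 pmel-1 drug arrays read from 7.87 to 8.51, below every one of the other 6. It was the member with the largest fall in each pmel-1 drug group, 3.62-fold with trametinib (adjusted p = 1.15e-04), 3-fold with dabrafenib and 2.57-fold with both drugs. Birc5 and Incenp showed smaller differences. Birc5 was at −0.63 ± 0.20, −0.088 ± 0.20 and 0.13 ± 0.18 and Incenp at −0.47 ± 0.22, −0.098 ± 0.22 and 0.11 ± 0.20 under the same treatments in that order, of which the Birc5 value with trametinib passed. A second Aurkb probe set was at −1.43, the probe set used at −1.86, with trametinib.

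Kinetochore genes include Cenpa, the histone that marks the centromere, and the microtubule-binding Ndc80 and Nuf2 with their partner Spc25. The motor Cenpe and the large coat protein Cenpf are the others. With trametinib 4 of 6 fell (Cenpa, Ndc80, Nuf2 and Spc25), with dabrafenib 0 of 6, and with both drugs in pmel-1 recipients 0 fell and 2 rose. By limma 0 passed with dabrafenib, and 1 had an unadjusted p under 0.05, where 6703 of the 13785 genes tested did. Cenpa read 11.69 and 11.81 in control vehicle tumours, 12.10 and 11.44 in control tumours given both drugs, 11.74 and 11.67 in pmel-1 vehicle, 11.20 and 11.47 in dabrafenib, 10.95 and 10.89 in trametinib and 11.43, 11.70 and 11.59 in pmel-1 tumours given both drugs. The trametinib arrays were the lowest, by −0.79 ± 0.18 against vehicle, whereas a second Cenpa probe set was at 0.49. Cenpe read 9.57 and 9.90 in control vehicle tumours, 9.95 and 9.65 in control tumours given both drugs, 9.74 and 9.51 in pmel-1 vehicle, 9.62 and 10.34 in dabrafenib, 9.69 and 9.39 in trametinib and 10.35, 10.59 and 10.08 in pmel-1 tumours given both drugs. The 3 both-drugs arrays of pmel-1 recipients lay above the vehicle arrays, with a rise of 1.63-fold (adjusted p = 0.0208), and dabrafenib replicate 2 lay within their range.

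The spindle assembly genes were the motors Kif11 and Kif2c, the nucleation factor Tpx2 and the bundling protein Nusap1. All 4 fell with trametinib, 2 with dabrafenib (Kif11 and Nusap1), 1 with both drugs in pmel-1 recipients (Kif11) and 0 in control recipients. Kif11 read 9.76 and 10.15 in control vehicle tumours, 10.46 and 9.89 in control tumours given both drugs, 9.88 and 9.79 in pmel-1 vehicle, 9.19 and 9.11 in dabrafenib, 8.84 and 8.95 in trametinib and 9.18, 9.33 and 9.44 in pmel-1 tumours given both drugs. Its falls with dabrafenib and with both drugs did not pass in either fit that held an RNA ratio. In pmel-1 recipients every drug array lay below both vehicle arrays, while in control recipients the both-drugs arrays overlapped with vehicle (0.22 ± 0.18, adjusted p = 0.3927). Tpx2 was at −0.83 ± 0.17 with trametinib, −0.44 ± 0.17 with dabrafenib (adjusted p = 0.0603) and −0.20 ± 0.16 with both drugs.

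At the midzone and in cytokinesis the motors Kif4, Kif23 and Kif20a, the bundler Prc1, the scaffold Anln and Ect2 act together. With trametinib 4 of 6 fell, with dabrafenib 2 (Kif20a and Kif4), with both drugs in pmel-1 recipients 1 (Kif20a) and in control recipients 0. Kif23 read 10.26 and 10.73 in control vehicle tumours, 10.79 and 10.39 in control tumours given both drugs, 10.74 and 10.27 in pmel-1 vehicle, 10.03 and 10.33 in dabrafenib, 9.90 and 9.98 in trametinib and 10.50, 10.60 and 10.33 in pmel-1 tumours given both drugs. The fall with trametinib (−0.57 ± 0.20, adjusted p = 0.0472) passed narrowly and was lost under 13 of the 26 alternatives. Kif20a, which carries the passenger complex to the midzone, fell by 1.003 ± 0.17 with trametinib, 0.74 ± 0.17 with dabrafenib and 0.49 ± 0.16 with both drugs. Prc1 passed in none of these, being at 0.35 ± 0.15 with both drugs in pmel-1 recipients (adjusted p = 0.0715).

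The genes of chromosome structure were Top2a, the condensin subunits Smc2, Smc4, Ncapd2 and Ncaph, and Mki67. With trametinib 3 of 6 fell (Top2a, Smc2 and Ncaph), with dabrafenib 2 (Smc2 and Ncaph), and with both drugs 1 fell and 1 rose in pmel-1 recipients and 1 fell in control recipients. Top2a read 11.98 and 12.11 in control vehicle tumours, 11.95 and 11.76 in control tumours given both drugs, 11.73 and 11.79 in pmel-1 vehicle, 11.42 and 11.64 in dabrafenib, 11.18 and 11.27 in trametinib and 11.83, 11.82 and 11.61 in pmel-1 tumours given both drugs. Trametinib arrays were lowest (−0.53 ± 0.12, adjusted p = 0.0052), and both drugs left it at −0.0091 ± 0.11 in pmel-1 recipients. The fall of Top2a with trametinib did not pass with the mean of all probe sets or with the most variable probe set. Its estimate ran from −0.65 to −0.12 over the 26 alternatives. Smc2 read 10.91 and 11.15 in control vehicle tumours, 10.60 and 10.41 in control tumours given both drugs, 10.63 and 10.70 in pmel-1 vehicle, 10.09 and 10.27 in dabrafenib, 9.91 and 9.87 in trametinib and 10.54, 10.46 and 10.38 in pmel-1 tumours given both drugs. Smc2 fell with each single drug in pmel-1 recipients and with both drugs in control recipients. The 3 both-drugs arrays of pmel-1 recipients also lay below both of their vehicle arrays, but that difference did not pass. The fall of Smc2 in control recipients did not pass with the mean of all probe sets or with the most variable probe set. Mki67 read 11.56 and 11.89 in control vehicle tumours, 11.999 and 11.85 in control tumours given both drugs, 11.66 and 11.36 in pmel-1 vehicle, 11.71 and 12.14 in dabrafenib, 11.84 and 11.58 in trametinib and 12.15, 12.34 and 12.04 in pmel-1 tumours given both drugs. The 3 both-drugs arrays of pmel-1 recipients lay above both of their vehicle arrays, a rise of 1.59-fold (adjusted p = 0.0067). On the same arrays Cdk1 and Aurkb fell. Its rise did not pass without pmel-1 vehicle replicate 2, and in the fit with the 3′ over 5′ ratio it was at 0.30 (adjusted p = 0.3617).

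The treatments of pmel-1 recipients were also compared with each other, to ask whether the second drug added to the first. Members read higher with both drugs than with trametinib alone. All 41 estimates were above 0, from 0.27 to 0.80 with a median of 0.53, where 51.6% of all genes were above 0. In all 41 the 3 both-drugs arrays lay above the 2 trametinib arrays, against 16.6% of all genes, and 12.3% of all genes had them below. By limma 1 passed, Smc2 (0.57 ± 0.11, adjusted p = 0.0358), where 1.1% of all genes passed, 0.856% higher and 0.239% lower. An unadjusted p under 0.05 was found for 40 of 41 members and 1772 of the 13785 genes tested. The Smc2 call was lost under 14 of the 26 alternatives, among them the mean of all probe sets and the most variable probe set. Cenpe (0.80 ± 0.22, adjusted p = 0.1202), Kif2c (0.79 ± 0.19), Birc5 (0.76 ± 0.18), Nuf2 (0.72 ± 0.16) and Plk1 (0.69 ± 0.16) had the largest differences and did not pass. The count ran from 0 to 9 over the omission of single arrays, being 0 without any one pmel-1 both-drugs, trametinib or vehicle array, 6 without either control both-drugs array and 9 without either dabrafenib array. It was 9 with array weights and 0 without the 3 arrays highest in Adipoq. The median lay between 0.49 and 0.57 over these omissions. The signs are those of the probe set used. By another probe set 3 of the 28 members with several had the opposite sign, and of the 44 other probe sets 5 lay lower by over 0.5 and 0 higher. The 7 macrophage markers were also all above 0 in this comparison, with a median of 1.102 and all 7 at an unadjusted p under 0.05. Their part in the result was not tested.

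Both drugs against dabrafenib alone gave smaller differences. All 41 estimates were above 0, from 0.046 to 0.41 with a median of 0.22, and in 16 members the groups did not overlap, against 6.1% of all genes, and 0 members were lower in that way, against 4.93%. By limma 0 members and 0 genes passed (0% of all genes), and 6 members and 246 genes had an unadjusted p under 0.05. Kif4 (0.41 ± 0.16) and Nusap1 (0.37 ± 0.13) had the largest estimates. The median was 0.078 without dabrafenib replicate 1 and 0.38 without replicate 2, and 0.34 without the 3 arrays highest in Adipoq. Of the 28 members with several probe sets, 8 had probe sets of opposite sign. Dabrafenib against trametinib had a median of 0.29, with 40 estimates above 0 and non-overlapping groups in 29 members, against 20.7% of all genes higher and 19.6% lower. By limma 0 members passed, where 0.776% of all genes did, 0.588% higher and 0.189% lower. An unadjusted p under 0.05 was found for 13 members and 1620 of the 13785 genes tested. Plk1 (0.55 ± 0.17), Birc5 (0.54 ± 0.20) and Kif2c (0.54 ± 0.21) led. That median was 0.43 without dabrafenib replicate 1 and 0.16 without replicate 2. Probe sets of opposite sign were found in 5 members, and the 7 macrophage markers were all above 0 (median 1.13), their part again not tested. The 3 comparisons share arrays, so their signs are not independent of each other.

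Transfer of pmel-1 instead of C57BL/6 splenocytes was compared within vehicle and within both-drugs tumours. Among vehicle tumours 0 members and 0 genes passed by limma (0% of all genes), with 2 members and 1822 genes at an unadjusted p under 0.05, and the median member was at −0.066. The groups did not overlap in 11 members lower (26.4% of all genes) and 1 higher (20.1%). Smc2 (−0.36 ± 0.12, adjusted p = 0.2397) and Bub1b (−0.29 ± 0.17) had the lowest estimates and did not pass. Among both-drugs tumours Kif11 was lower in pmel-1 recipients (−0.86 ± 0.17, 1.82-fold, adjusted p = 0.0200) and no other member passed, where 4.24% of all genes passed, 1.58% lower and 2.66% higher. The groups did not overlap in 10 members lower (22.7% of all genes) and 3 higher (19.8%). The 6 fibroblast markers were all below 0 (median −1.30) and the 7 macrophage markers all above 0 (1.01), and their part in the result was not tested. Aurkb was at −0.80 ± 0.20 (adjusted p = 0.0523). The count was 0 without control both-drugs replicate 2 or pmel-1 both-drugs replicate 1 or 2, 6 without control both-drugs replicate 3, 2 without either dabrafenib array and 0 in the fit that held the 3′ over 5′ ratio. The interaction tests whether both drugs acted differently in the kinds of recipient. It passed for 0 members by limma, where 0.283% of all genes passed, 0.232% above 0 and 0.0508% below. At an unadjusted p under 0.05 the interaction had 3 members and 2204 of the 13785 genes tested. Its largest estimates were those of Aurkb (−0.89 ± 0.30, adjusted p = 0.2032) and Kif11 (−0.74 ± 0.25, 0.1988). The falls and rises that passed in pmel-1 recipients and not in control recipients are therefore not shown to differ between them.

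Many members are read by more than 1 probe set, and these did not always move together. Of the 41 members 28 have several above the filter, 85 probe sets in all, of which the one with the highest mean was used and 44 were not. With both drugs in pmel-1 recipients, 16 of the 44 lay lower than the probe set used by over 0.5 and 4 higher, whereas in control recipients 0 lay lower by that much and 5 higher. The condensin subunit Smc4 was at 0.25 ± 0.14 by the probe set used, and at −1.18 and −1.31 by the others. Its partner Smc2 was at −0.21 ± 0.11, and at −1.77, −1.19 and −1.57 by 3 others. In control recipients the same other Smc2 probe sets were at −0.11, 0.098 and −0.14.

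Among the 4 rises with both drugs, Mki67 has no second probe set above the filter. Cenpf is read by 3, of which 2 rose (0.51 and 0.40) and the third fell (−0.88). Cenpe was at −0.64 and Pttg1 at −0.16 and 0.52 by the others. Tested probe set by probe set, 25 of 85 fell and 8 rose with both drugs in pmel-1 recipients, against 23.6% and 20.7% of all 24579 probe sets, and with trametinib 55 fell and 0 rose, against 20.6% and 16.8%. The 3′ over 5′ ratio ran from 0.86 to 1.31 in the both-drugs arrays of pmel-1 recipients and from 0.18 to 0.22 in their vehicle arrays, and from 0.19 to 0.42 and 0.25 to 0.28 in control recipients. Its part in the gap between probe sets was not tested.

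**Figure D4:**
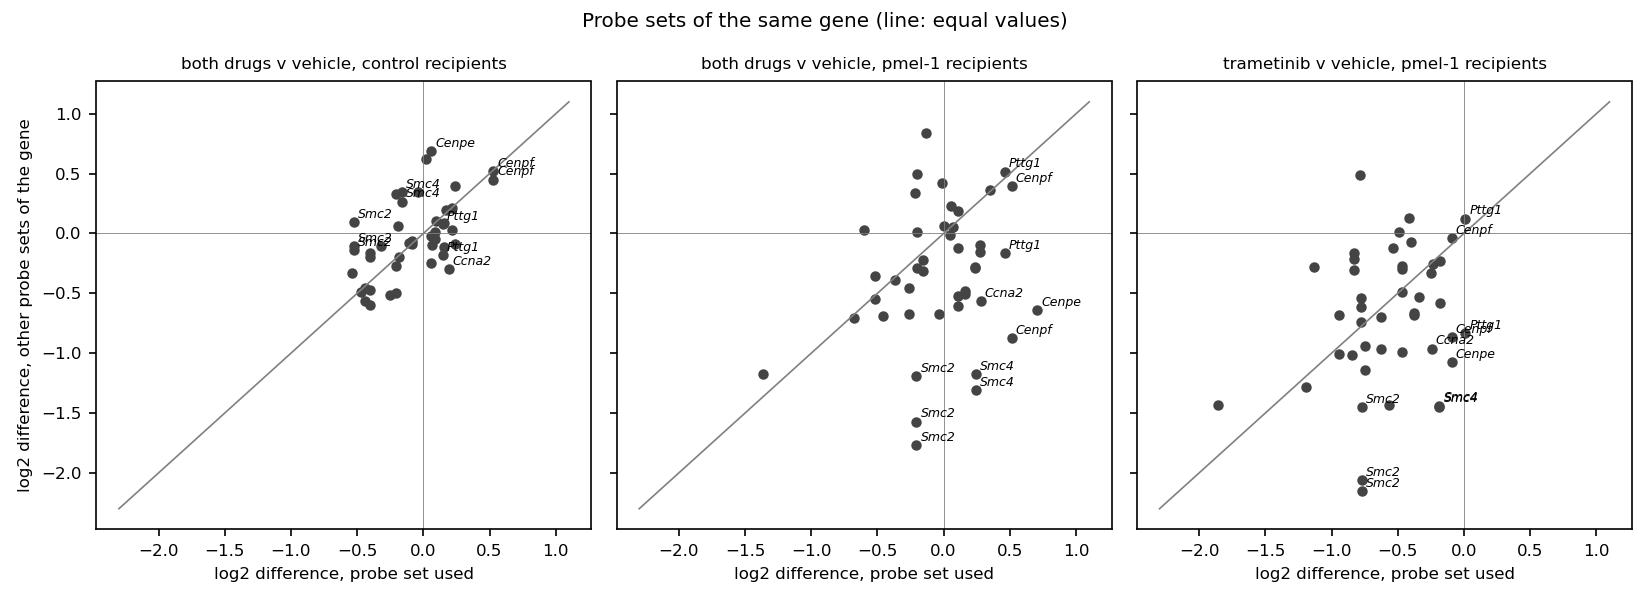
Log2 difference by the probe set used (x axis) and by each other probe set of the same member above the filter (y axis) in 3 comparisons with vehicle. On the line both are equal. In pmel-1 recipients Smc2, Smc4, Cenpe and one Cenpf probe set lie far below the line, and in control recipients no point lies below it by more than 0.5.

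Other genes of the cell cycle were set beside the members, from a list of 60 further mitotic genes (59 tested) and one of 35 DNA replication genes (33 tested). With trametinib 42 of 59 fell and 0 rose (median −0.71), with dabrafenib 30 fell and 0 rose (−0.49), with both drugs 18 fell and 5 rose in pmel-1 recipients (−0.27) and 12 fell and 2 rose in control recipients (−0.045). Of all genes 19.1% fell with trametinib, 19.6% with dabrafenib, 21.2% (24.3% rose) with both drugs in pmel-1 recipients and 16.7% (18.7% rose) in control recipients, so the 12 of 59 is near the share of all genes. With both drugs in pmel-1 recipients the kinetochore gene Cenph (−1.12 ± 0.17), Fbxo5, an inhibitor of the anaphase-promoting complex (−1.07 ± 0.15), and the histone kinase Haspin (−0.93 ± 0.17) fell most. The spindle pole gene Aspm (0.71 ± 0.18), Ckap2 (0.60 ± 0.17) and separase, Espl1 (0.60 ± 0.18), rose most. In control recipients Trip13 (−1.31 ± 0.16), Cenph (−1.08 ± 0.19) and Cdca5 (−0.74 ± 0.18) fell most, and Aspm (0.77 ± 0.19) and Ckap2 (0.61 ± 0.18) rose. Against trametinib, 1 of 59 was higher with both drugs, Ncapg2 (0.79 ± 0.15), where 0.856% of all genes were. The median was 0.45, and nothing is read from a count of 1.

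The replication genes went lower than the mitotic genes in each comparison with vehicle, as medians. Of 33, 31 fell with both drugs in control recipients (median −1.03), 29 with both drugs in pmel-1 recipients (−1.01), 29 with dabrafenib (−1.23) and 30 with trametinib (−1.19), and 0 rose in any of the 4. Medians of the mitosis and spindle genes in these comparisons were −0.040, −0.070, −0.33 and −0.63. Cdc6, which loads the replicative helicase, was at −2.61 ± 0.20 with both drugs in control recipients and −2.10 ± 0.18 in pmel-1 recipients. Uhrf1, which keeps DNA methylation through replication, was at −1.95 ± 0.16 and −1.55 ± 0.15. The helicase subunits Mcm3 (−1.52 ± 0.15 in control recipients) and Mcm6 (−1.72 ± 0.14 in pmel-1 recipients) were among the largest falls too. Both drugs against trametinib gave a median of 0.21 and 1 rise of 33, thymidine kinase Tk1 (0.90 ± 0.18), where 0.856% of all genes rose. The difference between the lists was not tested.

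**Figure D5:**
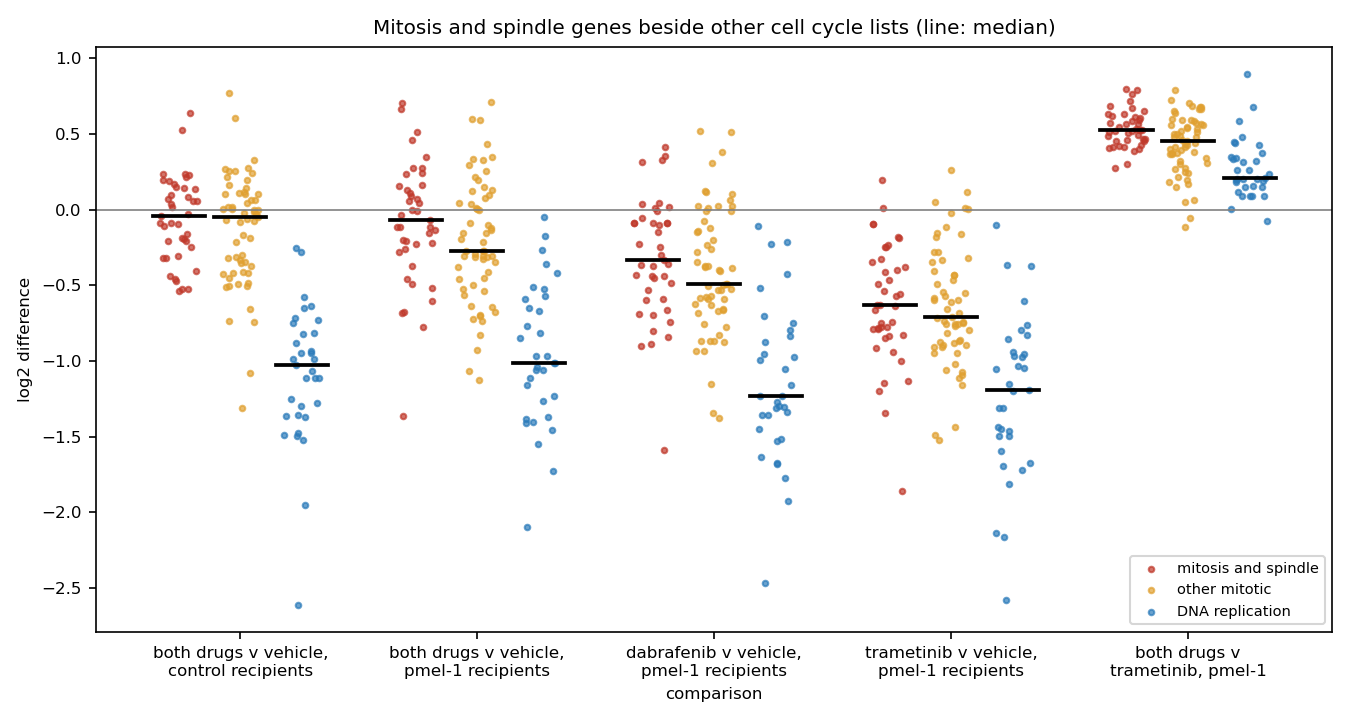
Log2 difference of each gene of 3 lists in 5 comparisons, with the median of each list as a line. Replication genes have medians near −1 or below in all 4 comparisons with vehicle, the mitosis and spindle genes range from −0.040 to −0.63, and all 41 of the latter lie above 0 for both drugs against trametinib.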

How the data were processed

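The series deposited a table of log2 intensities of 45101 probe sets on 13 arrays. Per the submitters' processing notes the authors normalized them with RMA in the affy package, without a version, and per the labels' protocols RNA was extracted with a micro column kit and labelled as biotinylated cDNA. Of the probe sets, 34945 carry 1 gene symbol in the platform annotation, 932 several and 9160 none, and 64 are array controls. The probe set with the highest mean stood for its gene, and a gene was kept where at least 2 arrays exceeded 5.79, the 40th percentile over the whole table. limma (version 3.58.1 in R 4.3.3) fitted 6 group means to all 13 arrays (7 residual degrees of freedom), with 10 contrasts and Benjamini-Hochberg adjustment within each. An adjusted p under 0.05 was the threshold. The script was tested on simulated data. The members and the gene lists were chosen with earlier results of these data known. Genes described array by array were anchors of the roles plus, in each comparison, up to 2 members with the largest rise and up to 2 with the largest fall that passed. From the other 2 lists, up to 3 per direction that passed in comparisons of both drugs were named. Alternatives were 11 processing choices, leaving out each of the 13 arrays, and 2 added after the data were seen. A test of every probe set on its own was also added and is not counted among the alternatives. The planned 3′ over 5′ ratio named no control genes. It was first taken over 4 (Actb, Gapdh, Tfrc and Pcx) and then, after their values were seen, over Actb and Gapdh. The version with 4 is counted among the 2 added alternatives. Promoter sequences are from RefSeq (GRCm38.p6), and 34 of the members matched. Intensities give no depth, and the number of arrays limits the precision.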

Additional observations from a re-analysis of the deposited data

How the results depend on the processing

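Over the omission of each array in turn, the count of members that passed and the median difference ranged as follows. They ranged from 1 to 7 and from −0.23 to 0.17 for both drugs in control recipients, where 3 passed higher and 0 lower without control both-drugs replicate 3, and 1 higher and 0 lower without control vehicle replicate 3. They ranged from 5 to 13 and from −0.15 to 0.025 for both drugs in pmel-1 recipients, from 9 to 16 and from −0.48 to −0.18 for dabrafenib, and from 17 to 29 and from −0.72 to −0.56 for trametinib. Against trametinib, both drugs gave 0 to 9 and 0.49 to 0.57. Against dabrafenib, both drugs gave 0 throughout and 0.078 to 0.38, and dabrafenib against trametinib gave 0 throughout and 0.16 to 0.43. Transfer gave 0 throughout and −0.16 to 0.013 with vehicle, 0 to 6 and −0.29 to 0.095 with both drugs, and 0 throughout and −0.20 to 0.21 for the interaction.

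Other processing moved these values. For both drugs in control recipients (5) the count was 1 with only the arrays compared and 3 with the replicate block. In pmel-1 recipients (13) it was 3 with the 3′ over 5′ ratio as covariate (median −0.26) and 5 with the ratio of 4 control genes. For dabrafenib (14) it was 23 with the most variable probe set and 8 with the ratio (median −0.50), and for trametinib the median was −0.82 with the most variable probe set. For both drugs against trametinib (1) it was 2 with the 60th percentile filter or only the arrays compared, 3 with an intensity trend, 9 with array weights, 10 with the ratio of 4 control genes, and 0 with median centring, repeated quantile normalization, the replicate block or without the 3 arrays highest in Adipoq. For transfer with both drugs (1) it was 2 with the mean of probe sets, the 60th percentile filter, an intensity trend or array weights, 3 with the most variable probe set, and 0 with only the arrays compared, either ratio, the replicate block or without the Adipoq arrays. The median was −0.29 there with the ratio of 4 control genes, and the interaction's median was −0.20 with either ratio. With the most variable probe set Cenpa was at 0.84, 0.70 and 0.49 with both drugs, dabrafenib and trametinib in pmel-1 recipients, and with both drugs Cenpe was at −0.64, Cenpf at −0.88 and Pttg1 at −0.16. Of the values of single members followed over the alternatives, 3496 stayed on the same side of the threshold, 202 no longer passed and 40 passed newly. Another 6 changed sign and passed in the main fit, in the alternative or in both. A change of sign was not counted where neither fit passed. The cause of these moves was not tested.

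Whether replicate numbers pair the samples could not be decided. Deviations from the group mean correlated from −0.46 to 0.45 over the 23 same-numbered pairs (median −0.073), and 4 exceeded 0.1. Over the 47 pairs with different numbers they ran from −0.45 to 0.46 (median 0.023), and 16 exceeded 0.1. In every group except pmel-1 both-drugs tumours the deviations of the arrays mirror each other exactly, so these correlations are not independent. With the replicate block (5 residual degrees of freedom) 9 members passed with both drugs in pmel-1 recipients. Members lay above the filter level on every array, which is no limit of detection, and background and saturation were not tested.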
